A study of Homo sapiens with 2 samples.

Results

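Nascent transcription was described over the stretch of chromosome 22 up to BCR in K562, a cell line established from human chronic myelogenous leukaemia. The members were all 6000-base windows around gene starts on chromosome 22 that end at or before position 23318037 (hg38), the end of BCR. They were 193 of the 36814 windows in the deposited table, and the other 640 windows of chromosome 22 served as the reference. The first member starts at 11063418 and the last, the BCR window, ends at 23182703. Of the 193 windows 117 matched a gene symbol or synonym in RefSeq (GRCh38.p14), and 88 of these are protein-coding.

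The assay was precision run-on sequencing (PRO-seq). Cells are made permeable, polymerases already on the DNA add biotin-carrying nucleotides to the RNA they are making, here for 5 min at 30 °C, and this RNA is pulled down and sequenced. There were 2 libraries of K562 cells grown in serum-supplemented RPMI, with no other agent named: 1 from untreated cells and 1 from cells given 0.1% DMSO, a drug solvent, for 1 h. With 1 library per treatment no value has a replicate check, no test between treatments was possible, and no p-value is given.

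Chronic myelogenous leukaemia is defined by the Philadelphia chromosome, in which chromosome 22 is joined within BCR to ABL1 of chromosome 9. The fusion gene is transcribed from the BCR promoter and encodes a tyrosine kinase that is constantly active. K562 is known to carry the fusion in extra copies. DNA copy number was not measured here, and reads from the fused and the unfused BCR start cannot be told apart. The long arm up to BCR also holds the region deleted in DiGeorge (22q11.2 deletion) syndrome, the region in excess in cat eye syndrome, and the immunoglobulin lambda locus, which B cells rearrange. Low copy repeats, blocks of near-identical sequence, separate these segments.

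The promoter sequences of 5 members are shown because the level results turn on their windows: GP1BB, SLC25A1 and YDJC had the highest mean levels, BCR is the boundary gene, and CRKL encodes an adaptor protein that the BCR-ABL kinase phosphorylates. Each runs 5′ to 3′ from 250 bases before to 50 bases after the RefSeq start (GRCh38.p14). Capitals mark GC boxes (GGGCGG, or CCGCCC on the other strand) and CCAAT boxes (CCAAT, or ATTGG on the other strand).
GP1BB, chr22:19723289-19723588, plus strand: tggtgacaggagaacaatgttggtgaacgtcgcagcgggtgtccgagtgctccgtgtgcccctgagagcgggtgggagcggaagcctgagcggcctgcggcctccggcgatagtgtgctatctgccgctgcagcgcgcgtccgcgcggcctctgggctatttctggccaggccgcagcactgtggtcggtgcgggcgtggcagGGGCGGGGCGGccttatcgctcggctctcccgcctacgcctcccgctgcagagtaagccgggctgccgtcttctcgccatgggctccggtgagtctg
SLC25A1, chr22:19178687-19178986, minus strand: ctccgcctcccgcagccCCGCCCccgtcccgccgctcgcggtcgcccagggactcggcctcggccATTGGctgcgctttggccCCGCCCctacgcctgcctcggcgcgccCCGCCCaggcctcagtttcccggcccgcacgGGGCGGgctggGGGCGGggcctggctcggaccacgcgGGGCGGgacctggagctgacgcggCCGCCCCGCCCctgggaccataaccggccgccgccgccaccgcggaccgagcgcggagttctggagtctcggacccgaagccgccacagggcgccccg
YDJC, chr22:21629973-21630272, minus strand: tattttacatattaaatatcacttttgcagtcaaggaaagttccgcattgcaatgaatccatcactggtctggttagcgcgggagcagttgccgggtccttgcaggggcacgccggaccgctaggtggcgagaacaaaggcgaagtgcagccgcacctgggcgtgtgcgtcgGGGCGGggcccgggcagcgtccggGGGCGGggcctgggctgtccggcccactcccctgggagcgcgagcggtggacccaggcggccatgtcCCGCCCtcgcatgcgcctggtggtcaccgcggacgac
CRKL, chr22:20917157-20917456, plus strand: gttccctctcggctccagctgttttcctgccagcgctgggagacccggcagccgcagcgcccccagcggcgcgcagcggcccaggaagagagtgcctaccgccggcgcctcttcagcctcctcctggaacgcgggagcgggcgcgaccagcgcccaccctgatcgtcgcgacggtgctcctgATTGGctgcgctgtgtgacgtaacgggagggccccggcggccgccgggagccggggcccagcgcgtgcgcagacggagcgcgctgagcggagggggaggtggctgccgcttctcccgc
BCR, chr22:23180259-23180558, plus strand: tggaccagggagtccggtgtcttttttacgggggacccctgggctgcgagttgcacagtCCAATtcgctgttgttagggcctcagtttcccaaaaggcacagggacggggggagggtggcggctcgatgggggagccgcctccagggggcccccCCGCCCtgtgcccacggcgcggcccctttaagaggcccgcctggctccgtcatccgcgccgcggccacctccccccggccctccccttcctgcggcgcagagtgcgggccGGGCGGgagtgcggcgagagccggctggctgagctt

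Overlapping matches were counted separately, and on both strands SLC25A1 held 8 GC boxes, YDJC 3, GP1BB 2, BCR 2 and CRKL 0. SLC25A1, CRKL and BCR held 1 CCAAT box each, and GP1BB and YDJC 0. All 5 promoters were rich in G and C, from 65.7% in YDJC to 80.3% in SLC25A1, and their observed over expected CpG ratio lay between 0.70 in BCR and 0.95 in SLC25A1. These matches are letters in a 300-base stretch and no measure of binding.

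The window AP000553.1 (21649270 to 21655269) is shown with its microRNAs because it ranked seventh among the members. It holds the genes MIR301B and MIR130B on its plus strand. Their 3p arms share the seed AGUGCAA, bases 2 to 8, printed in capitals, as do 6 mature microRNAs in the RefSeq table in all.
hsa-miR-301b-3p: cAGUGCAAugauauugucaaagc
hsa-miR-130b-3p: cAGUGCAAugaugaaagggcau
The table holds 10 hairpins up to BCR, of which 4 lie inside a member window. The reads of such a window count everything transcribed there and are not a level of the microRNA.

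The libraries held 2136291 reads (untreated) and 4154920 reads (DMSO). Levels are given as reads and as CPM, a window's reads divided by the library's total and multiplied by 1000000. The 4 windows over 45S ribosomal RNA repeats took 71.5% of the untreated and 42.2% of the DMSO total, so the 2 CPM values of a gene do not compare the libraries. Erythroid markers of K562 reached 1 CPM in both libraries in 8 of 10 windows, B cell markers in 2 of 7. Other myeloid markers did in 2 of 4 and T cell markers in 0 of 3, beside 34.7% of all windows. Reads in bases that several windows share were not counted: the 1154 windows of the table that lie wholly under others held 0 reads. This held for windows of opposite strands as well, so the counts were not split by strand. A window's reads can come from either strand, and a strand given below is that of the gene. Of the members 42 had under 1 kb of unshared bases, among them 30 of the 88 coding genes, none with more than 57 reads in both libraries together. The low values of such windows do not show low transcription. They include HIRA, a histone chaperone, CDC45, a replication helicase factor, MED15 of the Mediator complex, and PRAME, a tumour antigen, the last with 19 unshared bases and 0 reads.

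The windows up to BCR held more reads per window than the rest of the chromosome, and more of them stood at high levels. They held 9770 untreated and 49648 DMSO reads, a mean of 50.6 and 257 reads per window, against 13.3 and 61.9 per window on the rest of chromosome 22. With ribosomal RNA and mitochondrial windows left out of the totals, the members took 1.86% of all reads untreated and 2.21% with DMSO, in 0.524% of the windows. The rest of chromosome 22 took 1.62% and 1.76% in 1.74% of the windows. The 10 members with most reads took 47.6% of the members' untreated and 54.4% of their DMSO reads. Without them the other members took 0.974% and 1.01% of the same totals in 0.497% of the windows. The rest of chromosome 22 without its own 10 took 1.35% and 1.40% in 1.71% of the windows.

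The share of windows with some transcription differed less than the share with high levels. Of the members 104 (53.9%) reached 1 CPM in both libraries, against 283 of 640 (44.2%) on the rest of the chromosome and 34.7% of all windows. Among windows with at least 1 kb unshared the shares were 60.3%, 56.5% and 42.7%. Among windows that overlap no other the order of the first 2 turned, with 53.8% of 104 members, 58.3% of 372 reference windows and 42.1% of all. A mean of 50 CPM, a level set after the data were seen, was reached by 33 members (17.1%), by 25 reference windows (3.91%) and by 5.67% of all windows. A mean of 100 CPM was reached by 23 members (11.9%) against 7 reference windows (1.09%) and 1.70% of all windows. Among RefSeq protein-coding windows alone 18 of 88 members and 22 of 335 reference windows reached 50 CPM. Without overlap 21 members (20.2%), 21 reference windows (5.65%) and 7.57% of all windows did. With totals that leave out ribosomal RNA and mitochondrial windows, 54 of 193 members and 116 of 640 reference windows did, a narrower gap. The share over all windows was not computed with those totals.

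Per kb of unshared bases, in windows with at least 1 kb of them, the members' median was 1.38 CPM, against 0.95 on the rest of the chromosome and 0.25 over all windows. Their 90th percentile was 32.2 CPM per kb, against 6.58 and 7.41. In windows without overlap the median turned, to 0.58 CPM per kb in the members against 0.98 on the rest and 0.20 over all, while the 90th percentile kept its order at 27.5, 5.94 and 6.80. Set beside the same measures on 22 other chromosomes, the members' median lay above 21 and their 90th percentile above all 22. Without overlap these were 19 and 22. The rank of the median was not particular to the members. The rest of chromosome 22, at 0.95 CPM per kb, also lay between chromosome 17 (0.87) and chromosome 19 (1.58), the highest others. These are descriptions of 2 libraries; the difference between the sets of windows was not tested, since windows are not replicates, and gene content was not matched.

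**Figure D1:**
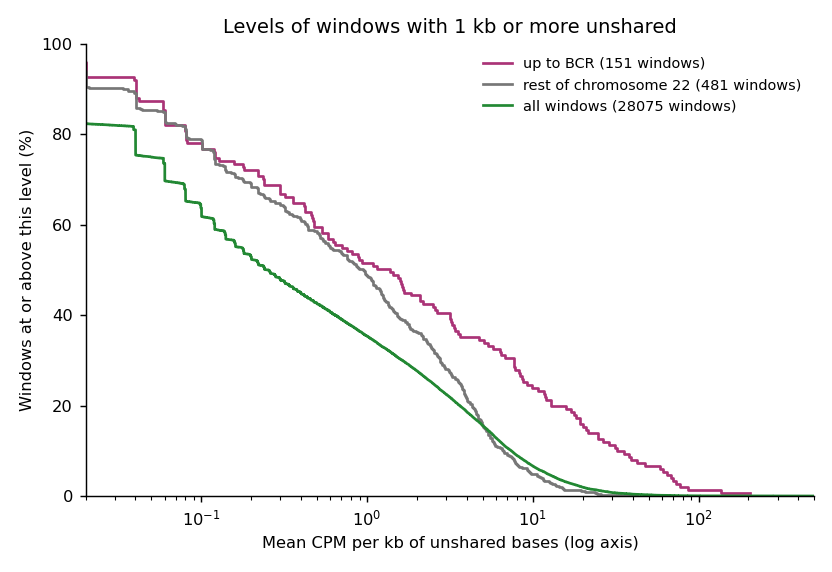
The share of windows (vertical axis, %) at or above each mean CPM per kb of unshared bases (horizontal axis, log scale) for the 151 windows up to BCR, the 481 of the rest of chromosome 22 and all 28075 windows with at least 1 kb unshared. The members' line runs close to that of the rest of the chromosome at low levels and lies to its right at high levels, with 90th percentiles of 32.2 and 6.58 CPM per kb.

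For ratios a window had to average at least 5 CPM and hold at least 100 reads in both libraries together, called the floor here. It was passed by 60 members (31.1%), by 149 reference windows (23.3%) and by 17.9% of all windows. Without overlap 33 of 104 members (31.7%) and 126 of 372 reference windows (33.9%) passed it, so the members' share was then the lower one. Above it the members' median was 54.4 CPM, against 28.9 CPM on the rest of the chromosome and 35.2 CPM over all windows; without overlap these were 107, 27.8 and 35.5 CPM. In each library by itself the order was the same, with medians of 37.0, 16.4 and 21.1 CPM untreated and 73.8, 39.7 and 49.3 CPM with DMSO. The ranks of the 2 libraries over the 60 members had a Spearman's rho of 0.911, which describes windows of 2 libraries and not independent samples.

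By position, the reads were concentrated between 19 and 22 Mb. That stretch held 104 of the 193 members (53.9%), 87.0% of their untreated and 85.0% of their DMSO reads, and 27 of the 33 windows at 50 CPM or more. Summed over windows and divided by the unshared bases, the level was 14.2 CPM per kb untreated and 40.9 with DMSO from 19 to 20 Mb. It was 11.0 and 21.4 from 20 to 21 Mb, and 7.53 and 21.2 from 21 to 22 Mb. The highest values of any of the 28 bins of 1 Mb on the rest of the chromosome were 3.59 untreated and 7.97 with DMSO. On either side the level was 0.82 and 2.47 CPM per kb from 18 to 19 Mb, and 1.5 and 2.82 from 22 to 23 Mb. In the 4 members from 23 Mb on, BCR among them, it was 5.01 and 40.4 CPM per kb. That is nearly the value of 1 window, since BCR held 134 of their 135 untreated and 2092 of their 2114 DMSO reads.

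**Figure D2:**
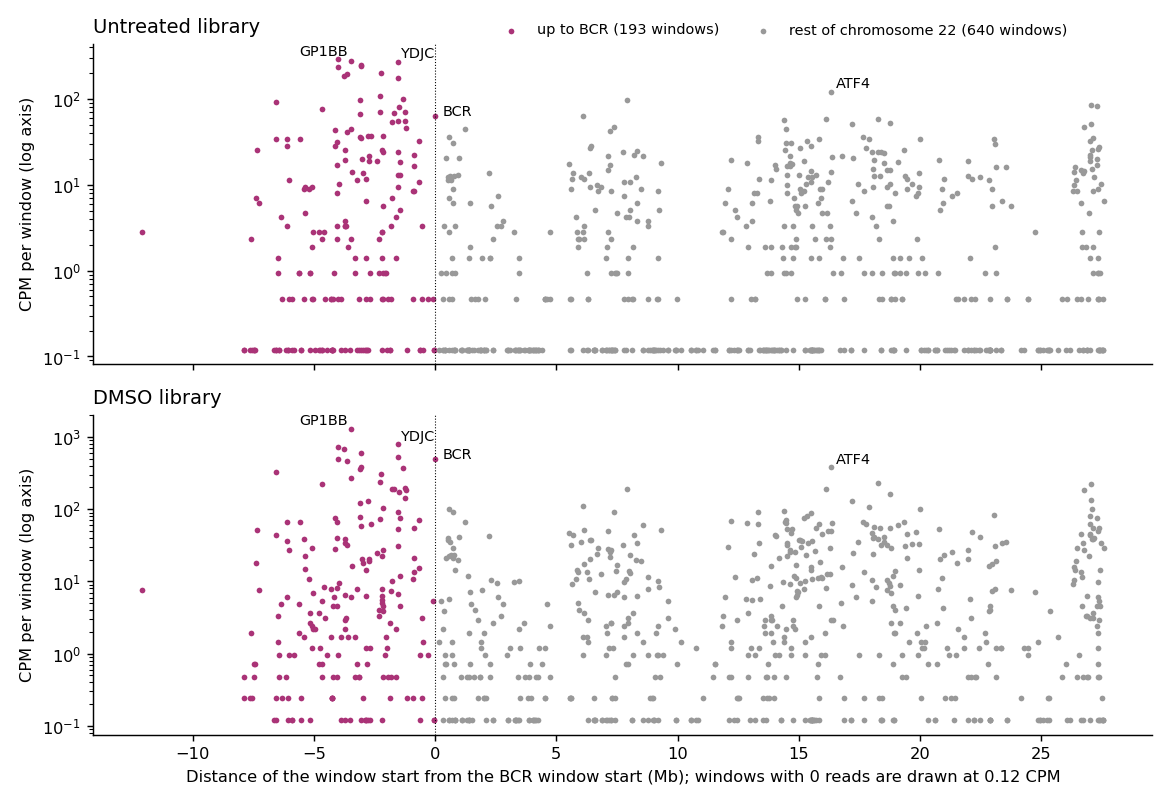
CPM of each chromosome 22 window (vertical axis, log scale) against the distance of its start from the BCR window (horizontal axis, Mb), for the untreated library above and the DMSO library below. The 193 windows up to BCR are coloured and the 640 others grey, and windows with 0 reads are drawn at 0.12 CPM; the highest windows, GP1BB and YDJC among them, lie to the left of BCR in both libraries.

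**Figure D3:**
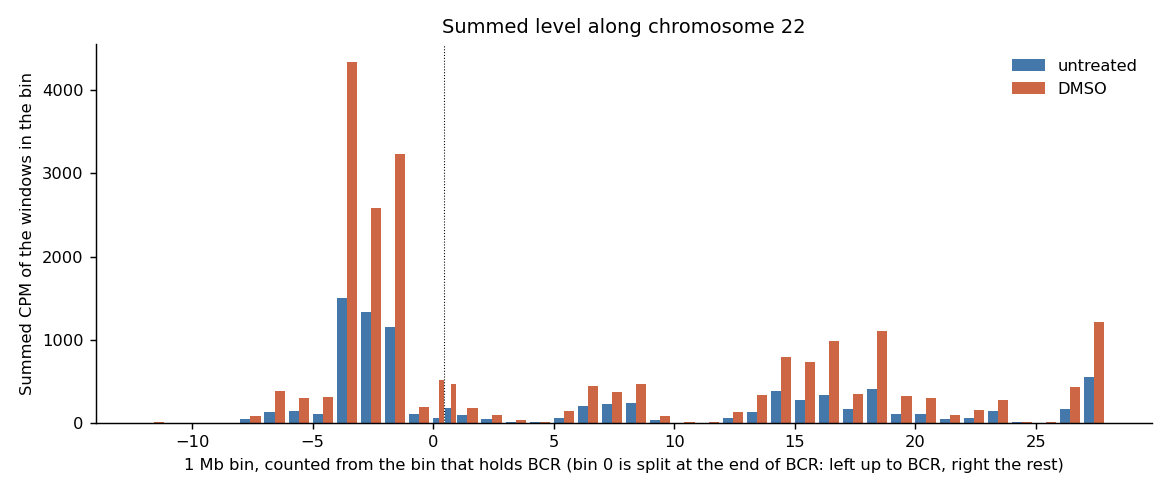
Summed CPM of the windows in each 1 Mb bin of chromosome 22 (vertical axis) for both libraries, with bins counted from the bin that holds BCR. The 3 tallest bins, 19 to 22 Mb, reach 1505, 1328 and 1146 CPM untreated, against at most 546 CPM in any bin on the rest of the chromosome.

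The windows of highest level belonged to genes of unrelated function. GP1BB encodes the beta subunit of platelet glycoprotein Ib, which binds von Willebrand factor; its window (19719945 to 19725944, plus strand, also overlapping SEPTIN5) held 591 untreated and 5345 DMSO reads, 277 and 1286 CPM. YDJC, a sugar deacetylase homologue (21627065 to 21633064, minus strand), held 578 and 3365 reads, 271 and 810 CPM. SLC25A1, the mitochondrial citrate carrier (19175740 to 19181739, minus strand), held 631 and 3061 reads, 295 and 737 CPM. SLC25A1 had most reads in the untreated library, followed by GP1BB and YDJC, while GP1BB had most with DMSO. The exact Poisson intervals (95%, counting error only) of the untreated counts were 544 to 641 reads for GP1BB, 532 to 627 for YDJC and 583 to 682 for SLC25A1, so that these 3 overlapped. Reads carry no molecular identifiers, and such intervals leave out all other error.

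MRPL40, a protein of the mitochondrial ribosome (19428902 to 19434901, also overlapping HIRA), followed with 392 untreated and 2878 DMSO reads. ZDHHC8, a palmitoyltransferase, held 527 and 2461 reads, with RANBP1 overlapping its window. LINC01311, a long noncoding RNA whose window ends shortly before that of SLC25A1, held 498 and 2060 reads. AP000553.1, the microRNA window above, held 375 and 2205 reads, 176 and 531 CPM. AC000082.1, which overlaps CDC45 and CLDN5, held 412 and 1915 reads, and AC006547.2, which overlaps DGCR8 and TRMT2A, 517 and 1613. Their reads may thus belong to the coding genes around them. In all, 11 members had a higher mean than ATF4, a stress-response transcription factor and the highest reference window of the chromosome, with 260 and 1610 reads. The 11th, LINC01637, stood at 254.8 CPM beside 254.6 CPM for ATF4, a difference within counting error. Per kb of unshared bases YDJC ranked first, with 102 CPM per kb untreated and 306 with DMSO over 2651 unshared bases.

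**Figure D4:**
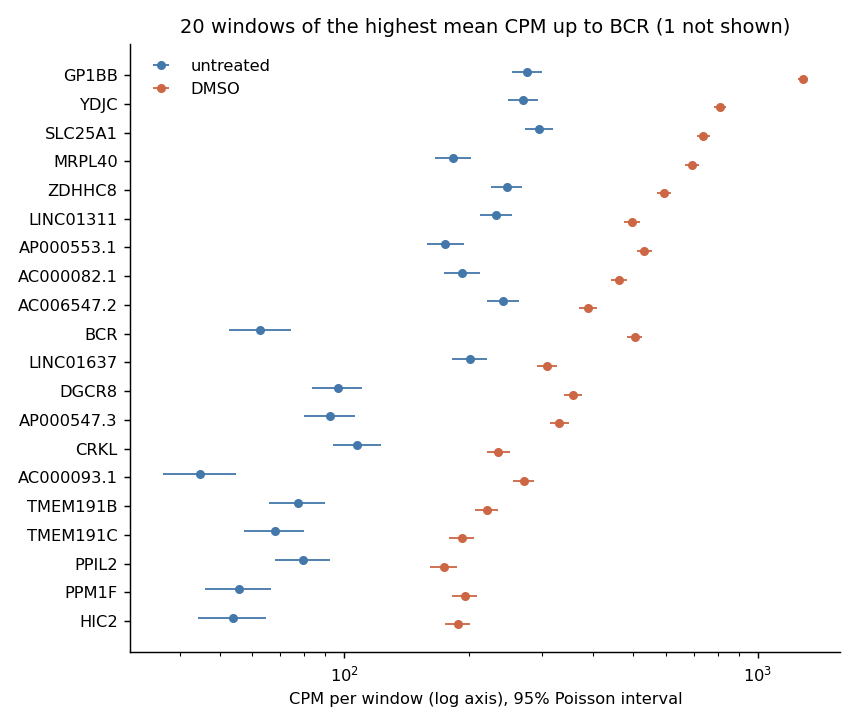
CPM (horizontal axis, log scale) of 20 members of the highest mean levels, 1 window not being shown, in the untreated and the DMSO library, with exact Poisson intervals at 95%. GP1BB leads the DMSO library with 1286 CPM, and BCR has 62.7 CPM untreated and 503 CPM with DMSO.

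At the start of the stretch, windows were few and most of them held few reads. Of the 23 windows that start before 17 Mb, 3 passed the floor. The highest was AP000547.3 (16598911 to 16604910), which overlaps TPTEP1, with 197 untreated and 1375 DMSO reads. AP000525.1, over DUXAP8 and BMS1P22, held 55 and 211 reads. POTEH, of a family of ankyrin repeat genes expressed in a few tissues, held 0 and 3 reads, and the olfactory receptor gene OR11H1 0 and 1. Of 7 listed windows of pericentromeric families 2 reached 1 CPM in both libraries and 0 passed the floor (34.7% and 17.9% of all windows). DUXAP8 was highest with 15 and 75 reads.

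In the cat eye region, 3 of 15 coding windows passed the floor, beside 17.9% of all windows. IL17RA, the interleukin 17 receptor subunit A, held 73 and 279 reads, 34.2 and 67.1 CPM. BID, which links death receptors to mitochondrial apoptosis, held 19 and 159 reads, and TUBA8, an alpha tubulin, 20 and 121. ADA2, a secreted adenosine deaminase, held 1 and 0 reads in a window without overlap, USP18, an interferon-induced protease, 6 and 9, and the blood group precursor-like gene XKR3 9 and 20. ATP6V1E1 and BCL2L13, which share a bidirectional start, had 105 unshared bases each and 1 and 0 reads in both libraries together.

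The low copy repeats held families of near-identical genes, and reads cannot be placed with certainty among their copies; how multiply aligned reads were treated is not given in the sources used here. The 8 FAM230 windows held between 1 and 34 reads in both libraries together. TMEM191B, at 18524802 to 18530801, held 165 untreated and 918 DMSO reads. TMEM191C, a near-identical copy at 21463423 to 21469422, held 145 and 798. TUBA3FP, a tubulin pseudogene, held 80 and 431. Of 21 windows in a list of repeat copies 8 reached 1 CPM in both libraries, and TMEM191B, TMEM191C and TUBA3FP passed the floor. Over all windows the shares were 34.7% and 17.9%.

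In the DiGeorge region 44 coding windows were counted, of which 22 had under 1 kb unshared and 15 passed the floor. Of these 15, 7 had a mean of 50 CPM or more. Of all windows 17.9% passed the floor and 5.67% had such a mean. DGCR8, the partner of DROSHA in cutting microRNA precursors, held 206 and 1484 reads, 96.4 and 357 CPM. CRKL held 230 and 980 reads, 108 and 236 CPM. ZNF74, a zinc finger gene, held 79 and 535 reads, TRMT2A, a tRNA methyltransferase, 75 and 244, and ESS2, a splicing-associated protein, 36 and 166. TSSK2, known as a testis kinase, held 67 and 275 reads, and ESS2 overlaps its window.

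Genes of that region known for expression in few tissues ranged from 0 reads to moderate counts. TBX1, the T-box factor tied to the heart defects of the syndrome, held 30 and 69 reads. RTN4R, the Nogo receptor of neurons, held 0 reads in both libraries in a window without overlap, which allows up to 3 reads, or 1.40 CPM untreated and 0.722 CPM with DMSO. GSC2, a homeobox gene, held 1 and 4 reads, and SLC7A4 1 and 2. The endothelial tight junction gene CLDN5 held 89 and 134 reads, SERPIND1, the thrombin inhibitor heparin cofactor II, 40 and 104, and SCARF2, a scavenger receptor, 46 and 86. SERPIND1 lies within PI4KA and its window also overlaps that gene.

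Between the DiGeorge region and the lambda locus all 10 coding windows of the list reached 1 CPM in both libraries. The floor was passed by 9, 6 of them with a mean of 50 CPM or more. Among all windows 34.7%, 17.9% and 5.67% did. HIC2, a transcriptional repressor, held 115 and 782 reads, and PPM1F, a protein phosphatase, 119 and 813. TOP3B, a topoisomerase, held 98 and 774 reads, and PPIL2, a cyclophilin-type ubiquitin ligase, 170 and 723. YPEL1 held 39 and 310 reads and SDF2L1, a protein of the endoplasmic reticulum, 51 and 222. UBE2L3, a ubiquitin-conjugating enzyme, was the member below the floor, with 9 and 9 reads in 2015 unshared bases.

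In the immunoglobulin lambda locus the 2 listed windows of genes specific to B cells held few reads. The lambda gene segments themselves (names in IGLV, IGLJ and IGLC) had no member window and were not measured. VPREB1, a part of the surrogate light chain, held 1 and 1 reads and IGLL5 1 and 4, both in windows without overlap. The zinc finger genes ZNF280B and ZNF280A, which lie within the locus, held 69 and 296 reads and 23 and 64 reads. AC245060.7, over the pseudogene BMS1P20 in the same locus, held 47 and 227. GNAZ, a G protein alpha subunit, held 1 and 22 reads, and RSPH14 and RAB36, which share all but 304 bases of their windows, 0.

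BCR (23176704 to 23182703, plus strand, also overlapping RSPH14 and BCRP8 in RefSeq) held 134 untreated and 2092 DMSO reads, 62.7 and 503 CPM. It ranked 21st among the members in the untreated and 7th in the DMSO library. The 3 windows nearest inside the boundary were RSPH14 and RAB36 with 0 reads and BCR. The nearest outside were LINC02556 with 0 and 6 reads, LINC01659 with 2 and 22, and FAM230I with 1 and 9. From the end of BCR to 24 Mb, 32 reference windows held 386 untreated and 1951 DMSO reads, and 11 of them passed the floor. The highest, C22orf15, had a mean of 68.0 CPM.

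Of the 60 members past the floor 29 were not RefSeq protein-coding windows, with a median level of 50.4 CPM against 82.9 CPM in the 31 coding ones. On the rest of the chromosome the medians were 23.9 CPM in 35 such windows and 30.1 CPM in 114 coding ones. AC006547.3 held 144 untreated and 500 DMSO reads, AC245452.1 150 and 596, and AP000553.2, which shares bases with PPIL2, 119 and 385. Several of these windows share bases with those of coding genes, such as AC006547.2 with TRMT2A, left with 1455 unshared bases, and AC000093.1 with SEPTIN5, which itself held 5 and 25 reads in 2717 unshared bases.

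In the untreated library 52 members held 0 reads, and 17 held 0 in both libraries. Among those 52 the most DMSO reads were 11 in FAM230H, 9 in FAM230D and 6 in AC244250.1. At the lower untreated depth a count of 0 allows up to 1.40 CPM, so a fold for these 3 windows is not given.

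Across function, some members of highest level stood in the lists, but others, such as YDJC, ZDHHC8 and LINC01311, were in no list by function. Of 11 nuclear genes of mitochondrial proteins 5 reached 1 CPM in both libraries and SLC25A1, MRPL40 and BID passed the floor, while 5 of the 11 had under 1 kb unshared. Of 16 chromatin, transcription and RNA genes 12 reached 1 CPM and 7 passed the floor, led by DGCR8, TOP3B and HIC2. Of 8 ubiquitin and protein quality genes 6 reached 1 CPM, and PPIL2 and SDF2L1 passed the floor. Of 6 platelet and vascular genes 5 did and 4 passed, with GP1BB alone holding 591 of their 772 untreated and 5345 of their 5716 DMSO reads. Of 7 genes listed as neural and muscle 3 reached 1 CPM. Those past the floor were TSSK2, known instead as a testis kinase, and CCDC188, a coiled-coil gene. TBX1, RTN4R, SLC7A4, CLTCL1 and PRODH stayed below it, the last 2 with under 1 kb unshared. BCR and CRKL, which act in BCR-ABL signalling, both passed 50 CPM. Over all windows 34.7% reached 1 CPM in both libraries, 17.9% passed the floor and 5.67% had a mean of 50 CPM or more.

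The comparison of the DMSO with the untreated library asks how a solvent control stands beside unperturbed cells, and here it compares 2 libraries. Log2 DMSO/untreated ratios were computed on counts scaled by edgeR's TMM factors and are given relative to the median of all 6591 windows past the floor. The 60 members past the floor had a median of -0.14, with quartiles of -0.56 and 0.33, against 0.17 on the rest of the chromosome and 0 by construction over all windows. At a floor of 20 CPM and 400 reads the order turned, with 0.086 in 30 members and 0.054 in 22 reference windows. At least 2-fold higher were 2 members (3.33%), AC000093.1 and BCR, where 8 of 149 reference windows (5.37%) and 7.04% of all windows were. At least 2-fold lower were 8 members (13.3%), where 8 reference windows (5.37%) and 7.97% of all windows were. Since the floor uses both libraries together, a window high in either one can pass it. Ratios of 23 members lay above the median window.

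BCR had the highest ratio of the members, 1.73 (interval 1.47 to 1.99, counting error only), with 134 untreated reads against 2092. AC000093.1, which overlaps SEPTIN5 next to GP1BB, stood at 1.31 (interval 1.02 to 1.63) with 96 and 1128 reads. GP1BB stood at 0.94 (interval 0.82 to 1.06). BID stood at 0.82, YPEL1 at 0.75, TOP3B at 0.74, MRPL40 at 0.64 and DGCR8 at 0.61. From the untreated to the DMSO library the share of these members thus rose more than that of the median window. BCR and AC000093.1 had intervals wholly past 2-fold.

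CLDN5 had the lowest ratio, -1.64 (interval -2.04 to -1.24), with 89 untreated and 134 DMSO reads, the single member whose interval lay wholly past 2-fold lower. THAP7-AS1 stood at -1.45 with 311 unshared bases, SCARF2 at -1.33, the noncoding DGCR11 within DGCR2 at -1.28 and CCDC188 at -1.27. AC007308.1, which overlaps SNAP29, stood at -1.24, AC007731.4, which overlaps KLHL22, at -1.23, and P2RX6, an ATP-gated channel, at -1.10. Most of these windows had under 200 reads in both libraries together, except CLDN5 with 223 and AC007308.1 with 455. Of the leading windows, SLC25A1 (0.04), ZDHHC8 (-0.01) and AC000082.1 (-0.02) stood near the median window, as did CRKL (-0.15), with intervals within 2-fold. Others stood lower, LINC01637 (-0.66), AC006547.2 (-0.60) and LINC01311 (-0.19), or higher, AP000553.1 (0.32) and YDJC (0.30). The intervals of these lay wholly on that side of the median window.

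By kind of window, coding genes had a higher median ratio than other windows both up to BCR and beyond it. The 31 protein-coding members past the floor had a median of 0.22, with 17 above and 14 below the median window, and the 29 other members -0.31, with 6 above and 23 below. On the rest of the chromosome the medians were 0.22 in 114 coding and -0.30 in 35 other windows. By stretch, the members' median was -0.19 from 19 to 20 Mb over 13 windows, -0.60 from 20 to 21 Mb over 17 and 0.30 from 21 to 22 Mb over 15. The differences between stretches and between kinds were not tested.

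**Figure D5:**
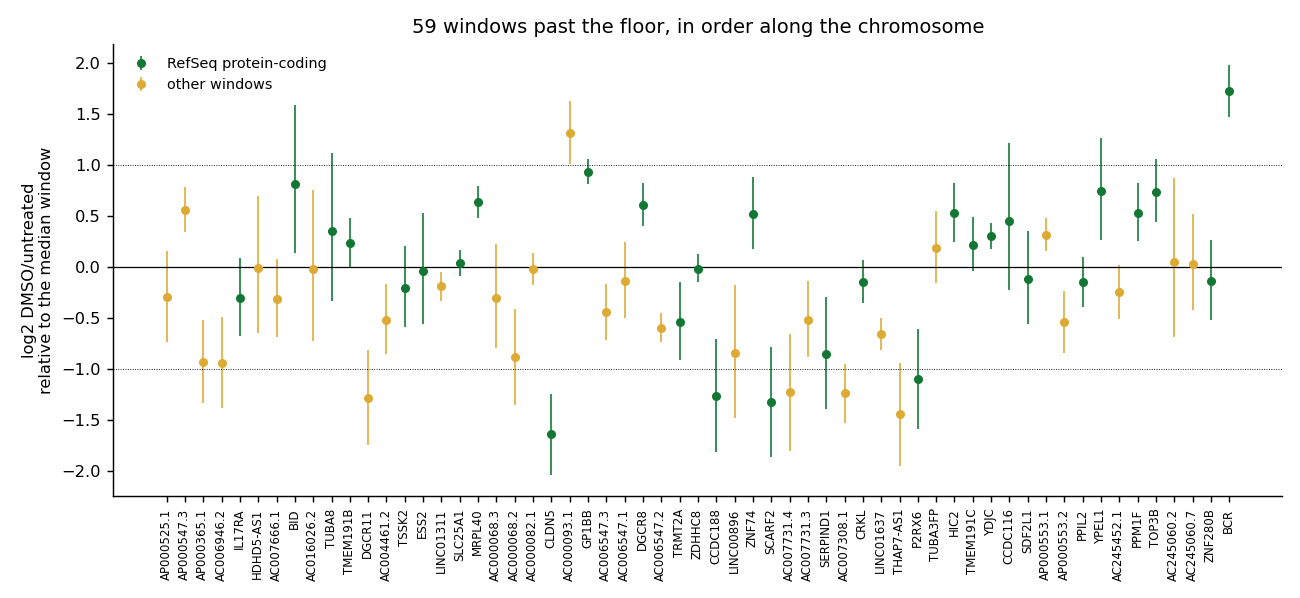
Log2 DMSO/untreated ratio relative to the median window (vertical axis) of 59 of the 60 members past the floor in their order along the chromosome (horizontal axis), with exact intervals at 95% for counting error; protein-coding and other windows are coloured apart and dotted lines mark 2-fold. BCR (1.73) and AC000093.1 (1.31) lie above the upper line, and 8 windows, CLDN5 the lowest at -1.64, lie below the lower line.

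Promoter sequences matched 72 of the 193 members, 26 of them past the floor. In all 72 the median GC content was 64.7% and the median observed over expected CpG ratio 0.79, against 66.3% and 0.83 in 241 promoters of the rest of the chromosome and 58.7% and 0.58 in all 35116 promoters of the table. Among the 26 past the floor 73.1% had a CpG ratio of at least 0.6, against 32.1% of the 28 below the floor with at least 1 kb unshared. The share was 61.1% in all 72, 71.0% in the reference promoters and 48.9% in all promoters. GC boxes (GGGCGG on either strand) stood in 54.2% of the 72, in 66.0% of the reference promoters and in 45.0% of all. CCAAT boxes stood in 26.4%, 38.6% and 34.6%, and TATAAA in 11.1%, 5.81% and 11.5%. The GATA letters AGATAA stood in 5.56%, 9.13% and 10.3%, and TGATAA in 6.94%, 3.73% and 7.53%. The letters CACGTG stood in 13.9%, 9.13% and 7.26%, CCGGAAG in 9.72%, 15.4% and 10.3%, AAGATGGCG in 2.78%, 4.98% and 1.75%, and TGACGTCA in 1.39%, 3.32% and 1.85%. The NRF1 motif, which is palindromic, stood in 1.39%, 3.32% and 1.24%. These shares describe letters in windows of 300 bases, and the differences were not tested.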

How the data were processed

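PRO-seq reads of 1 untreated and 1 DMSO library of K562 were analysed. The authors deposited raw read counts in windows reaching 3000 bases to each side of gene starts on hg38. They used Bowtie2 2.3.5 for alignment and featureCounts 2.0.1, as named per the submitters' processing notes. Filters and the strand setting are not given in the sources used here. The loss of reads in bases shared by windows of opposite strands shows that reads were not split by strand. The authors' deposited TPM values equal CPM (tolerance 1e-06) and were not used further; nor was their mean TPM. Unshared bases are those that no other window of either strand covers. Ratios were scaled by TMM (edgeR 4.0.16 in R 4.3.3), which gave 3.81 DMSO reads per untreated read, and used a prior count of 0.5. The median log2 ratio of windows past the floor was 0.31 under TMM and 1.27 under library totals, and was subtracted. The procedure was tested on simulated data. Alternatives covered scaling (DESeq2 1.42.0 among them), floors, prior count, thresholds and overlap. Named windows were those of highest level, highest or lowest ratio, each bin and each list, those nearest the end of BCR, and list members by position; single neighbours were added after their values were seen. Members and lists were chosen with earlier results of these data known. Some named windows are not reported here. Of the lists, the one of microRNA gene names had no window.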

Additional observations from a re-analysis of the deposited data

How the results depend on the processing

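No paired analysis was possible because there is 1 library per treatment, which also leaves no replicate to omit. Values are given for the windows up to BCR and then for the rest of chromosome 22; the cause of the differences was not tested, except that floors, thresholds, totals and window filters change which windows are counted. Settings of the 50 CPM counts and of the median level past the floor, and of coding genes alone, were added once the data had been seen. The share at 1 CPM in both libraries (53.9% and 44.2%) was 38.9% and 30.8% at 5 CPM, and 66.3% and 55.0% with totals that leave out ribosomal RNA and mitochondrial windows; it was 60.3% and 56.5% with 1 kb unshared and 58.0% and 53.4% in coding windows, and its order turned without overlap, at 53.8% and 58.3%. The median per unshared kb (1.38 and 0.95 CPM) was 3.61 and 2.43 with those totals and 3.44 and 2.17 in coding windows; its order also turned without overlap, at 0.58 and 0.98. Windows past the floor (60 and 149) numbered 102 and 277 at 1 CPM and 20 reads, 30 and 22 at 20 CPM and 400 reads, and without overlap 33 of 104 and 126 of 372, a lower share up to BCR. Windows at 50 CPM were 33 of 193 and 25 of 640. With totals that leave out ribosomal RNA and mitochondrial windows they were 54 and 116, a narrower gap in share. They were 21 of 104 and 21 of 372 without overlap and 18 of 88 and 22 of 335 in coding windows. A mean of 100 CPM was reached by 23 and 7. The median level past the floor (54.4 and 28.9 CPM) was 21.5 and 16.0 at 1 CPM and 165 and 72.7 at 20 CPM, and 107 and 27.8 without overlap.

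The windows higher by 2-fold or more with DMSO (2 of 60 and 8 of 149) numbered 11 and 44 at 1 CPM and 20 reads. They were 9 and 28 at 1.5-fold, 6 and 25 without centring, 1 up to BCR without overlap, and 0 of the rest at 20 CPM and 400 reads. Windows at least 2-fold lower (8 of 60 and 8 of 149) numbered 19 and 29, 15 and 26, and 3 and 3 in the first 3 of these settings. They were 1 and 0 at 20 CPM and 400 reads, and 5 up to BCR without overlap. The median ratio, -0.14 and 0.17, was 0.086 and 0.054 at 20 CPM and 400 reads, so that its order turned. The highest median per unshared kb of a bin was 18.0 CPM with bins of 0.5 Mb, against 7.80. In 55 of 99 settings, counts stayed within 1.5 times and shares and medians within their interval over windows; the intervals of the medians were wide enough to hold the values without overlap above. All 164 alternatives for the ratios of 41 named windows stayed within their counting intervals. This tells little about the ratios, since centring nearly cancels the scalings and the lower floor adds the same amount to every ratio. Depth limits the low end: 3 untreated reads make 1.40 CPM.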
